A study of Mus musculus with 2 samples.

Results

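The miR-106a-363 and miR-106b-25 clusters are paralogs of the better known miR-17 cluster, which runs from miR-17 to miR-92a, and each makes several microRNAs (miRNAs) from 1 primary transcript. They were followed through 7 names listed by the probe identifiers of the array: mmu-miR-106a, mmu-miR-18b, mmu-miR-20b and mmu-miR-363 for the X-linked miR-106a-363 cluster, and mmu-miR-106b, mmu-miR-93 and mmu-miR-25 for the miR-106b-25 cluster. All 7 were found among the 566 mouse miRNA names of the array. The 2 RNA samples came from C57BL/6J mice and were each hybridised, labelled with Cy3, to 1 single-colour Agilent miRNA array. One was LKS cells, bone marrow cells without lineage markers that carry Kit and Sca1, a fraction of early haematopoietic progenitors isolated by magnetic separation and fluorescent sorting. The other was total bone marrow (total BM), which holds all marrow cells. The sources used here give neither the number nor the age of the mice, and the LKS fraction itself mixes stem cells with several kinds of progenitor.

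MiRNAs guide silencing complexes to messenger RNAs mainly through the seed, bases 2 to 8 from the 5′ end, so miRNAs with 1 seed share many targets. The seed of miR-17, miR-20a, miR-20b, miR-93, miR-106a and miR-106b is known for repressing brakes on cell division and survival such as Cdkn1a (p21). The seed of miR-25, miR-92a and miR-363 is known for repressing the pro-apoptotic gene Bcl2l11 (Bim). The miR-106b-25 hairpins lie in an intron of Mcm7, a gene of the replicative helicase that is active in dividing cells, and the X-linked cluster is known as a site of retroviral insertion in mouse leukaemias. Since the miR-106a-363 locus also encodes copies of miR-19b and miR-92a whose mature sequences equal those of the miR-17 cluster, the array names miR-19b and miR-92a cannot be assigned to either locus.

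In the mouse assembly GRCm38.p6 the 6 hairpins of miR-106a-363 span chrX:52741693-52742567 on the minus strand, and the 3 hairpins of miR-106b-25 span chr5:138165321-138165818 on the minus strand, inside the Mcm7 gene. The array files name no genome build, and these positions are those of the RefSeq sequences. All 7 names matched a mature RefSeq sequence. They are shown with the seed in capitals because seed and paralog order the results below, first for the X-linked cluster in transcript order and then for miR-106b-25:
miR-106a: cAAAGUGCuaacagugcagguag
miR-18b: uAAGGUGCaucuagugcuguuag
miR-20b: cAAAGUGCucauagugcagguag
miR-363: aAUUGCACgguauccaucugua
miR-106b: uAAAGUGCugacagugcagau
miR-93: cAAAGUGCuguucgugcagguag
miR-25: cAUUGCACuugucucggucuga

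The corresponding products of the miR-17 cluster (chr14:115043671-115044506, plus strand) are shown for comparison, since near-identical sequences bear on which signal a probe can hold:
miR-17: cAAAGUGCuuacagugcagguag
miR-18a: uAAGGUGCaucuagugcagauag
miR-20a: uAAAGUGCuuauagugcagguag
miR-92a: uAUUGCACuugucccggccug

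The 7 sequences were 21 to 23 bases long, with a GC content from 40.9% (miR-363) to 52.2% (miR-93). Positions are counted from 1 at the 5′ end, and each substitution gives the base of the miR-17 cluster product first. MiR-106a differed from miR-17 at 1 of 23 positions, U10A. MiR-20b differed from miR-20a at 2 of 23 positions, U1C and U10C, and shared with it the last 13 bases. MiR-18b differed from miR-18a at 2 positions near the 3′ end, A18U and A20U. In miR-106b-25, miR-106b differed from miR-17 at 3 of the 21 positions compared (C1U, U10G and G20A), miR-93 from miR-20a at 4 of 23, and miR-25 from miR-92a at 3 of 21. The largest difference was that of the X-linked miR-363, which shared the seed of miR-92a but differed from it at 11 of 21 positions. Array probe sequences were not used here, so cross-hybridisation between these near-identical miRNAs was not tested.

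The clusters differed first in what could be seen. All 3 names of miR-106b-25 were detected on both arrays, whereas in the X-linked cluster miR-20b was detected on both arrays and miR-106a, miR-18b and miR-363 on neither. Thus 4 of the 7 names were detected in LKS cells and the same 4 in total BM, beside 17.3% of all mouse names in LKS cells and 25.6% in total BM. Detection is the deposited call of 0 or 1, made by a rule that the sources used here do not give. The 4 detected names also passed on both arrays when a signal of at least 3 times its deposited error was asked for, and when it had to exceed the highest negative control or viral probe.

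Signals are the deposited total gene signals in linear intensity units, each with the error deposited beside it. Probes differ in affinity, so the signals do not rank different miRNAs, and the values below are compared within a name across the arrays. With 1 array per group there was no biological replicate and no test: the errors are technical, and every difference describes these 2 arrays. In such bulk samples fewer cells that make a miRNA and less of it per cell cannot be told apart.

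MiR-20b, the X-linked counterpart of miR-20a, read 438 ± 32.6 in LKS cells, against 399 ± 29.4 in total BM. MiR-106b, the first hairpin of its transcript, read 596 ± 52.4 in LKS cells, against 737 ± 64.1 in total BM. The 2 signals of miR-20b lay within 1 combined error of each other (0.89), and those of miR-106b were 1.71 combined errors apart, with the LKS signal lower. MiR-25, which shares its seed with miR-92a, had 310 ± 29.6 in LKS cells and 471 ± 44.5 in total BM. MiR-93, which has the miR-17 seed, had 104 ± 10.2 in LKS cells and 205 ± 19.3 in total BM. As deposited, the LKS signal was thus lower for all 3 names of miR-106b-25, by 4.62 combined errors for miR-93 and 3.02 for miR-25, and slightly higher for miR-20b.

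**Figure D1:**
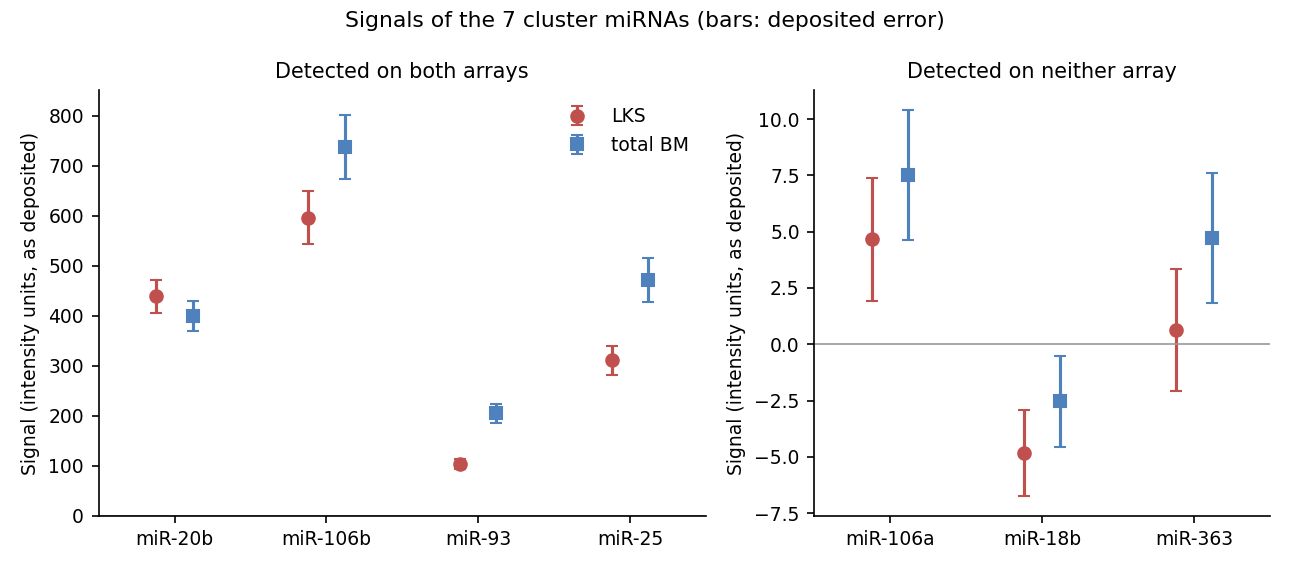
Deposited signals in intensity units of the 7 cluster miRNAs on the LKS array (circles) and the total BM array (squares), with bars of 1 deposited error. The 4 detected miRNAs, at left, lie between 104 and 737, and only miR-20b is higher in LKS cells; the 3 undetected ones, at right on a much smaller axis, lie between -4.84 and 7.51 with bars that overlap between the arrays.

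The LKS array was dimmer as a whole. Its median log2 ratio to total BM over the 93 mouse miRNAs that both arrays detected was -0.65 before scaling. Each array was therefore divided by its 75th percentile over these 93, which was 242 for the LKS array and 399 for total BM, adding 0.72 to every log2 ratio of LKS over total BM and bringing the median to 0.07. The total BM percentile was the signal of miR-20b itself, so the scale on that array rests on a name under study. When the 7 names and the products of the miR-17 cluster were left out of the percentile, all ratios were higher by a further constant, at 1.15 for miR-20b, 0.70 for miR-106b, 0.41 for miR-25 and 0.03 for miR-93.

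After scaling, none of the 4 detected names was 2-fold apart between the samples, whereas 18.3% of the 93 shared miRNAs had an LKS excess of at least 2-fold and 18.3% a deficit of that size. MiR-20b was 1.81-fold higher in LKS cells (log2 ratio 0.86 ± 0.15, rank 20 of 93 from the highest). MiR-106b was 1.33-fold higher (0.42 ± 0.18, rank 34). MiR-25 lay at 0.12 ± 0.19 (rank 43), and miR-93 was 1.19-fold lower (-0.25 ± 0.20, rank 57). The errors of these ratios were propagated from both deposited errors. Those of miR-20b and miR-106b were over 2 errors above 0, which held for 36.6% of the shared miRNAs, and neither miR-25 nor miR-93 was 2 errors from 0; 30.1% of the shared miRNAs lay over 2 errors below it. The 4 ratios had a median of 0.27, beside 0.07 for all 93, and lay within or just above the middle part of the 93, whose quartiles were -0.66 and 0.69.

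**Figure D2:**
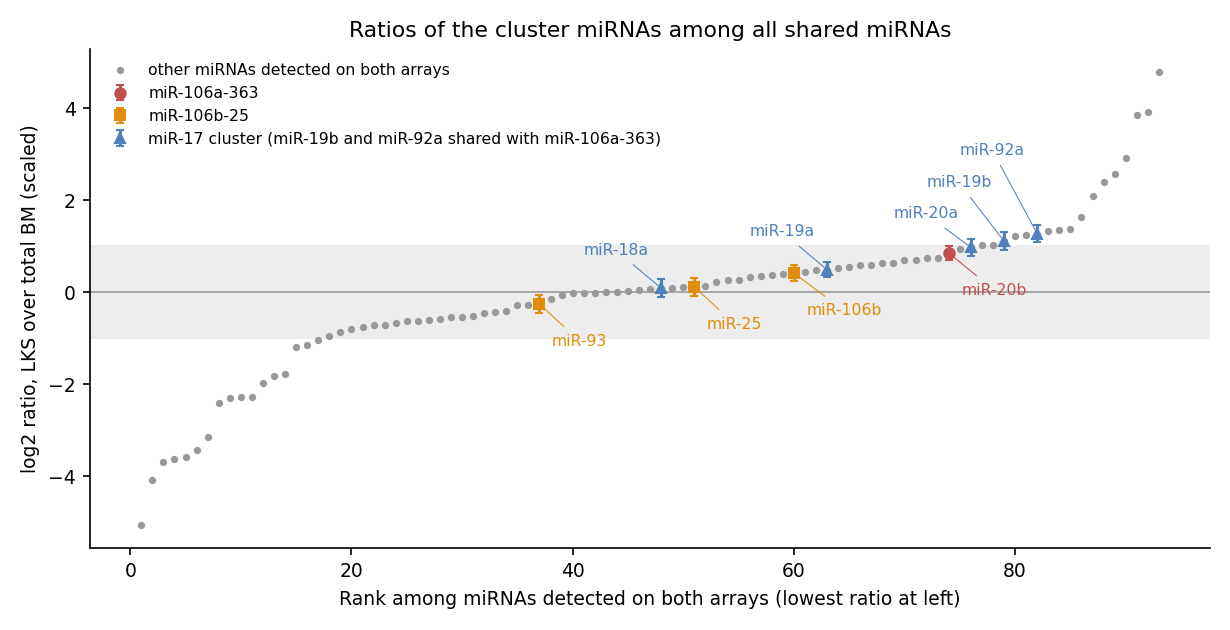
Scaled log2 ratios of LKS over total BM for the 93 miRNAs detected on both arrays, in order of size, with bars of 1 propagated error on the cluster miRNAs and a grey band for ratios within 2-fold. MiR-20b (0.86) lies beside miR-20a (0.98), while miR-106b (0.42), miR-25 (0.12) and miR-93 (-0.25) lie lower; the names of the miR-17 cluster run from 0.09 (miR-18a) to 1.27 (miR-92a).

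The sign of a ratio near 0 followed the scaling. MiR-20b was above 0 under all 8 alternatives, from 0.13 without scaling to 2.97 with the 75th percentile over all mouse miRNAs. MiR-106b was above 0 in 6 of 8, and fell below it without scaling (-0.31) and in the authors' deposited value table (-0.23). MiR-25 was above 0 in 5 and miR-93 in 3. The order miR-20b, miR-106b, miR-25, miR-93 from the highest ratio was found under 7 of the 8 alternatives. Scaling by a factor common to an array, or not scaling, shifts all ratios alike and so could not change this order. Only the deposited value table, recentred background and quantile normalization could. Of these, quantile normalization did, placing miR-93 (0.31) above miR-25 (0.07).

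**Figure D3:**
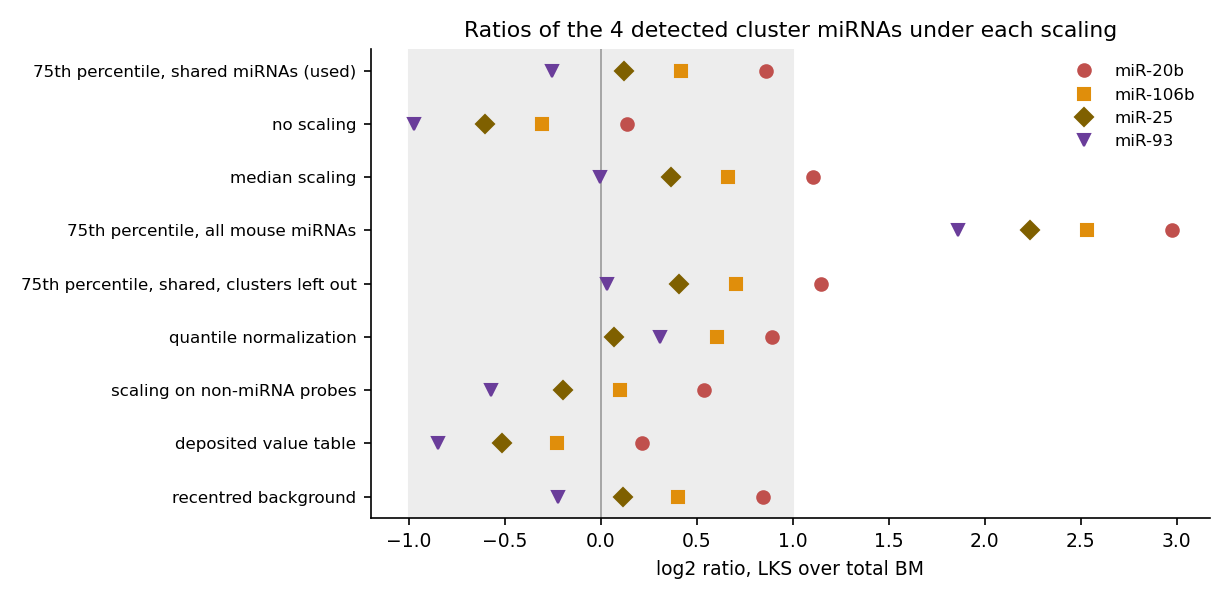
Log2 ratios of LKS over total BM of the 4 detected cluster miRNAs under the scaling used (top line) and each alternative, with a grey band for ratios within 2-fold. The miR-20b ratio runs from 0.13 without scaling to 2.97 with the percentile over all mouse miRNAs. Its point is the rightmost on every line, and lines that differ only by a factor common to an array keep the order by construction. Under quantile normalization the points move unequally, and miR-93 (0.31) passes miR-25 (0.07).

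Differences between the ratios of 2 names do not depend on any factor common to an array, so they compare the clusters without the scaling. The median of the X-linked cluster, here miR-20b alone, exceeded that of miR-106b-25, here that of miR-25, by 0.74 ± 0.25 on the log2 scale, or 1.67-fold (3.01 errors). This difference was 0.73 in the deposited value table, 0.73 with recentred background and 0.58 after quantile normalization, where miR-93 in place of miR-25 was the median; miR-20b exceeded miR-25 there by 0.82. Taken one by one, the ratio of miR-20b exceeded that of miR-93 by 1.11 ± 0.25 (4.49 errors, and 0.58 or 2.35 errors after quantile normalization) and that of miR-25 by 0.74 ± 0.25. It exceeded that of miR-106b by 0.44 ± 0.23, which is under 2 errors (1.89).

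The 3 names of miR-106b-25, processed from 1 transcript, spread over 0.67 on the log2 scale. MiR-106b exceeded miR-93 by 0.67 ± 0.27 (2.53 errors). MiR-25 lay between them and was within 2 errors of both, 0.30 ± 0.26 below miR-106b and 0.37 ± 0.28 above miR-93. Quantile normalization ended the first of these calls: miR-106b exceeded miR-93 by 0.29 (1.11 errors) and miR-25, then the lowest, by 0.54 (2.04 errors). Of the 6 pairs among the 4 detected names, 3 thus differed by over 2 errors, of which 2 set miR-20b against a miR-106b-25 name and 1 lay within miR-106b-25. Quantile normalization also gave 3, with miR-106b against miR-25 in place of miR-106b against miR-93. The share of such pairs among all 93 shared miRNAs, whose ratios had quartiles of -0.66 and 0.69, was not counted. These calls are therefore not shown to be particular to the clusters.

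Against their counterparts in the miR-17 cluster the detected names also stood at different places. For the X-linked cluster only miR-20b gave a ratio. It shares its last 13 bases with miR-20a, and cross-hybridisation between the 2 was not tested. The ratio of miR-20b was within 1 error of that of miR-20a (difference -0.12 ± 0.23); miR-20a had 1966 ± 171 in LKS cells, against 1650 ± 144 in total BM. The ratio of miR-93 was below that of miR-20a by 4.65 errors (-1.23 ± 0.26), although both carry the miR-17 seed. The ratio of miR-25 was below that of miR-92a by 4.26 errors (-1.15 ± 0.27); miR-92a had 2052 ± 191 in LKS cells, against 1401 ± 130 in total BM. Quantile normalization moved these last differences to -0.73 for miR-93 and -1.999 for miR-25. MiR-106b, whose counterpart miR-17 was not detected, lay 0.56 ± 0.25 below miR-20a (2.22 errors, and 1.73 after quantile normalization). It also lay below miR-19b (2.68 errors) and miR-92a (3.30 errors), but within 2 errors of miR-18a (difference 0.32 ± 0.26) and miR-19a (-0.08 ± 0.24). The share of such differences among all shared miRNAs was not counted, so these calls are not shown to be particular to the clusters.

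**Figure D4:**
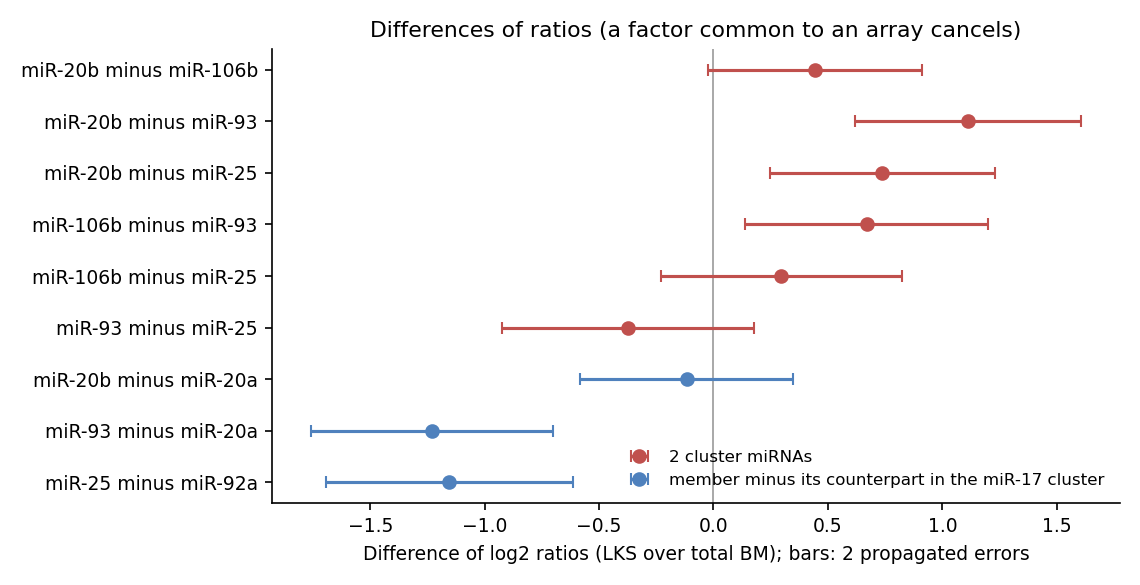
Differences between the log2 ratios (LKS over total BM) of 2 cluster miRNAs, above, and of a cluster miRNA and its counterpart in the miR-17 cluster, below, with bars of 2 propagated errors. The bars of miR-20b against miR-93 and miR-25, of miR-106b against miR-93, and of miR-93 and miR-25 against their counterparts do not reach 0; that of miR-20b against miR-20a (-0.12) spans it.

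All 5 detected names of the miR-17 cluster had ratios above 0, with a median of 0.98, beside 50 of the 93 shared miRNAs, and 2 of them, miR-92a (1.27 ± 0.19) and miR-19b (1.11 ± 0.19), had an LKS excess of at least 2-fold, beside 18.3% of the shared miRNAs. Without scaling 3 of the 5 were above 0 and none was 2-fold higher, with miR-92a at 1.46-fold and miR-19b at 1.31-fold. These are the names that the X-linked locus also encodes, so their signal cannot be divided between the loci. MiR-19a lay at 0.49 ± 0.16 and miR-18a at 0.09 ± 0.19. MiR-18a had 196 ± 18.4 in LKS cells and 303 ± 28.1 in total BM, and its ratio differed from that of miR-25 by 0.11 errors, so the names of the miR-17 cluster were not uniformly above those of miR-106b-25.

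By seed, the 6 names on the array with AAAGUGC as bases 2 to 8 gave 4 detected on both arrays, whose ratios spread over 1.23 on the log2 scale from miR-93 to miR-20a. Of 6 names with AUUGCAC, miR-25 and miR-92a were detected, 1.15 apart, and miR-363, miR-32, miR-92b and miR-367 were detected on neither array. Of the 2 names with AAGGUGC, miR-18a was detected and miR-18b was not. Of all 566 mouse names, 93 were detected on both arrays. In both families with more than 1 detected name, the ratios farthest apart differed by more than 1 on the log2 scale. The quartiles of the 93 shared ratios, -0.66 and 0.69, also lay more than 1 apart, so such a spread is not particular to these families.

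The undetected X-linked names gave no ratio. MiR-106a read 4.66 ± 2.73 in LKS cells, against 7.51 ± 2.90 in total BM, which is 1.71 and 2.59 times its own error. MiR-363 had 0.637 ± 2.71 in LKS cells and 4.72 ± 2.88 in total BM. MiR-18b had -4.84 ± 1.91 in LKS cells and -2.54 ± 2.01 in total BM, below 0 after background subtraction on both arrays. The array signals of each of the 3 differed by about 1 combined error or less (0.72 for miR-106a, 0.83 for miR-18b and 1.03 for miR-363), in each case with the LKS signal lower, and the median of all undetected mouse names was also lower on that array (-5.55 in LKS cells, against -3.02 in total BM). In total BM 9 names called detected had a lower signal than miR-106a, so the call was not a single threshold on signal. These 3 miRNAs were not detectable at this signal, which does not show that they were missing from the cells.

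MiR-17, which differs from miR-106a by 1 base, was likewise detected on neither array, at 4.57 ± 2.73 in LKS cells, against 7.66 ± 2.91 in total BM. The values of miR-106a and miR-17 differed on each array by less than either error. No minor arm (name with a star) of the miR-106b, miR-93 and miR-20b hairpins was detected on either array, and all 3 had signals below 0 on both.

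With 2 arrays a pattern is only a pair of signals, and likeness was taken as the distance between scaled log2 signals over them. This distance includes the brightness of each probe and so does not compare abundance. The nearest other miRNA was let-7d for miR-20b (distance 0.06). It was miR-29a for miR-106b (0.66), let-7g for miR-25 (0.16) and miR-23a for miR-93 (0.14).

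Marker miRNAs of marrow cell types were set beside the cluster names. These lists were chosen with earlier results of these data known, so they are no independent check of the sort. Of all mouse names, 17.3% were detected in LKS cells and 25.6% in total BM. None of 3 erythroid miRNAs was detected in LKS cells and all 3 were in total BM, and their scaled signals summed to -0.04 in LKS cells, against 0.78 in total BM. MiR-223, abundant in neutrophils, read 3.40 on the scaled signal in LKS cells, against 18.2 in total BM. Of 2 mature lymphoid miRNAs, 1 was detected in LKS cells and 2 in total BM, with sums of 0.14 in LKS cells, against 0.83 in total BM. Of 6 stem and progenitor miRNAs, 6 were detected in LKS cells and 5 in total BM, with sums of 2.67 in LKS cells, against 0.23 in total BM. None of 5 stromal miRNAs on the array was detected in either sample. The highest negative control or viral probe read 67.8 on the LKS array and 78.9 on the total BM array. All 6 stem and progenitor signals in total BM (at most 24.2) lay below it, as did miR-144 (17.7), miR-486 (32.2) and miR-150 (17.7) there. Among names detected in LKS cells, miR-125b-5p (26.7), miR-155 (58.7) and miR-342-3p (38.55) lay below it. The marker signals, other than the stromal ones, thus differed between the 2 samples. Whether the mix of cells had a part in the cluster ratios was not tested.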

How the data were processed

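One LKS array and 1 total BM array were compared. The authors deposited linear intensity values (total gene signals, per the file headers) with a signal error and a detection call of 0 or 1. Intensity values below 0 show that background had been subtracted, and array totals differ. The authors also deposited values on a log2-like scale, which followed, for all 576 miRNA names, the inverse hyperbolic sine of the signal after a linear change. The sources used here do not give the scanner, extraction software or call rule.

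Each array was divided by its 75th percentile over the 93 mouse names that both arrays detected, and log2 ratios were taken as LKS over total BM. Errors were propagated from the deposited errors. At least 2-fold counted as higher or lower. Single arrays allow no test and limit the precision to technical error. The names described were the 7 cluster names, the products of the miR-17 cluster, minor arms, array names with a shared seed, the nearest name to each detected one, and cell type markers. These names and lists were chosen with earlier results of these data known. The alternatives were 5 other scalings, quantile normalization among them, no scaling, the deposited log2 values, recentred background, other fold and detection thresholds and a filter on dim names. Sequences came from RefSeq tables of GRCm38.p6. The code was tested on simulated data, with Python 3.11.15, NumPy 2.4.6, pandas 2.3.3 and matplotlib 3.10.9.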

Additional observations from a re-analysis of the deposited data

How the results depend on the processing

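No paired analysis was possible because there was 1 LKS array and 1 total BM array, so leaving one out was not possible either. The medians of the detected names moved with the scaling. For miR-106a-363 (0.86) and miR-106b-25 (0.12) they became 0.13 and -0.60 without scaling, 1.11 and 0.37 with median scaling, 2.97 and 2.24 with the 75th percentile over all mouse miRNAs, and 1.15 and 0.41 with both clusters and the miR-17 cluster left out of the percentile. They became 0.54 and -0.20 with scaling on non-miRNA probes and 0.21 and -0.52 in the deposited value table. The count of names at least 2-fold higher was 0, beside 17 of the 93 shared miRNAs. It became 1, beside 22 of the 93, with median scaling and also with the clusters left out. With the percentile over all mouse miRNAs, whose factors lay among undetected signals, it became 4, beside 77 of the 93. At a threshold of 1.5-fold it became 1, and the shared miRNAs were not counted at that threshold. The count of lower names was 0 throughout, beside 7 to 36 of the 93 at 2-fold across the scalings. Quantile normalization moved the difference of miR-93 from miR-20a to -0.73 and of miR-25 from miR-92a to -1.999. The cause was not tested; scalings by 1 factor shift all ratios by a constant by construction. In the other 37 pairings of a cluster median, count or counterpart difference with an alternative, the value stayed within 1 error or the count within 1.5 times. Some of these pairings carry no information on stability. The filter on dim names removed none of the 4 detected names, so it repeated the main values. A count at 4-fold cannot exceed the count of 0 at 2-fold. For the ratios of the 4 single names and 7 further differences, 29 of 53 pairings moved by over 1 error. The floor for names detected on 1 array only was not run, as there were none.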

Other observations

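The minor arm of the miR-17 hairpin carried a detection call and miR-17 did not. MiR-17* was detected on both arrays, with 27.8 ± 3.59 in LKS cells and 22.6 ± 3.45 in total BM, and a scaled log2 ratio of 1.03 ± 0.29, within 1 error of miR-20a and miR-20b. Both signals lay below the highest negative control or viral probe of their array (67.8 for LKS and 78.9 for total BM). The other 7 minor arms of the 3 clusters on the array were detected on neither array. Among them miR-92a* had -9.04 ± 1.91 in LKS cells and -5.48 ± 2.01 in total BM, and the array file lists it under another precursor than miR-92a.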
